A study of Saccharomyces cerevisiae with 8 samples.

Results

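The levels of 6 nucleotide synthesis genes of budding yeast, grouped under early transcription termination, were compared across 4 strains. They were IMD2, IMD3, IMD4, URA2, URA8 and ADE12, matched by gene symbol and systematic name, and they make up 6 of the 9014 features in the deposited count table. Polyadenylated RNA was sequenced on the SOLiD platform from 2 libraries per strain. All 4 strains carried MAT-alpha his3D1 leu2D0 lys2D0 ura3D0 (BY4742), so all lacked URA3, itself a pyrimidine synthesis gene. The air1-Δ rrp6-Δ strain carried air1::bleR and rrp6::LEU2, the air2-Δ rrp6-Δ strain carried air2::bleR and rrp6::LEU2, and the rrp6-Δ strain carried rrp6::LEU2. WT carried none of these, so loss of RRP6 and presence of the LEU2 marker cannot be told apart in a comparison with WT. Each strain was grown from 1 colony in YPD, a rich medium, at 30 °C to an OD600 near 2.5, and RNA was selected on poly(U) sepharose. The labels do not say whether duplicates were separate cultures, so the p-values reflect spread between libraries that may be technical.

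Early termination of this kind is carried out by the Nrd1-Nab3-Sen1 complex, in which Nrd1 and Nab3 bind short motifs in nascent RNA and the helicase Sen1 releases the polymerase. The short RNAs are then given adenosine tails by TRAMP, whose zinc knuckle subunit is Air1 or Air2, and are degraded by the nuclear exosome with its exonuclease Rrp6. IMD2 is the textbook case: when GTP is plentiful, transcription starts at upstream sites and ends early, and when GTP is scarce it starts further downstream and yields messenger RNA. URA2, URA8 and ADE12 are known for related start site choice and early termination. For IMD3 and IMD4, which are in the group too, no evidence of early termination is given here. IMD2, IMD3 and IMD4 encode IMP dehydrogenase, which catalyses the first step committed to GMP. ADE12 encodes adenylosuccinate synthase, the first step from IMP to AMP. URA2 encodes the fused carbamoyl phosphate synthetase and aspartate transcarbamylase that opens pyrimidine synthesis, and URA8 encodes the less abundant of the CTP synthases, next to URA7.

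The stretches upstream of these genes were read from the R64 reference genome of RefSeq, since the count table carries no coordinates and the authors' build is not given in the sources used here. The windows run from 300 to 100 bases before the start codon on the strand of the gene, and none overlaps an annotated gene. Windows of IMD2, the textbook case, and of URA8 and ADE12, which hold the most TCTT matches, are shown. They lie at chrVIII:554096-554296 (+), chrX:620454-620654 (+) and chrXIV:234113-234313 (+). Capitals mark TCTT, bound by Nab3, and GTAA or GTAG, bound by Nrd1, on the strand of the gene.
IMD2: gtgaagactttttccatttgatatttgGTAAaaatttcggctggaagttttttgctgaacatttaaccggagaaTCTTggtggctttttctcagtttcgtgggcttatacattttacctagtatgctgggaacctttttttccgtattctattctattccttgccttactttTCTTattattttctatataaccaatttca
URA8: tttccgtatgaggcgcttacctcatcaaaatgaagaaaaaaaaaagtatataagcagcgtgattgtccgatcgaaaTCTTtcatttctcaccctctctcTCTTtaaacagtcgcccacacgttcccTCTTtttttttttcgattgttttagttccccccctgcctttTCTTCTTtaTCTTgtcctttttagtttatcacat
ADE12: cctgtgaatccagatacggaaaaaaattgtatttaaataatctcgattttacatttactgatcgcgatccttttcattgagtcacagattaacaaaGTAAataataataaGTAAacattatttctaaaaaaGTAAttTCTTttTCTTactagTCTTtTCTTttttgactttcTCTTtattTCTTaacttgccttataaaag

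TCTT occurred 2 times in the IMD2 window, 4 times in IMD3, 4 times in IMD4, 2 times in URA2, 6 times in URA8 and 6 times in ADE12, with overlapping matches counted separately. Of 6001 yeast genes with a window of this length, 78.8% held at least 1 TCTT on the gene's strand, with a median of 1, and 2.6% held 6 or more. On the opposite strand, URA2 held 5, a count reached by 2.47% of windows. GTAA occurred 3 times in ADE12 and 1 time in IMD2 on the gene's strand and was absent from the other 4 windows, against 61.8% of all windows with at least 1. GTAG was in none of the 6 windows on either strand, and 40.3% of all windows held it on the gene's strand. TATAAA was present in the windows of IMD4 and ADE12, and in 20.9% of all windows on that strand. These matches describe letters only, and say nothing of binding.

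Of the 15 pairs of windows, IMD2 and IMD3 gave the best local alignment, with 74 identical bases in 97 aligned columns (76.3%). The aligned parts run from 225 to 130 bases before the start codon in IMD2 and from 248 to 158 bases before it in IMD3. They are shown because the likeness of these genes extends beyond the reading frame, and capitals mark bases that differ or have no partner in the other gene.
IMD2: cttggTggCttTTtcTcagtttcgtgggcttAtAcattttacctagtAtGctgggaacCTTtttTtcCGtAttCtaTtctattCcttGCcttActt
IMD3: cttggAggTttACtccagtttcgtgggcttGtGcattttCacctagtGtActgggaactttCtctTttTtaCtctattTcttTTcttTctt

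The coding sequences of some pairs of IMD genes have long stretches in common. IMD2 (chrVIII:554396-555967, +) and IMD3 (chrXII:1002557-1004128, +) were 88.9% identical over 1572 coding bases each. IMD4 (chrXIII:162194-164176, −), with 2 coding exons, was 79.0% identical to IMD2 and 82.2% to IMD3. A match to IMD2 with 96.3% identity was also found at chrI:227742-229317 (+), where the IMD1 copy lies, annotated in the count table as the separate frames YAR073W (IMD1) and YAR075W. Of aligned 35-base stretches, 40.4% were identical between IMD2 and the IMD1 copy and 11.1% between IMD2 and IMD3. The share was 9.86% between IMD3 and IMD4, and only 0.0649% between IMD2 and IMD4. Coding bases 787 to 846 show the pattern, with capitals for differences from IMD2: 15 in IMD3, 14 in IMD4 and 4 in the IMD1 copy.
IMD2: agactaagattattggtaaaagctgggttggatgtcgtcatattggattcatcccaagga
IMD3: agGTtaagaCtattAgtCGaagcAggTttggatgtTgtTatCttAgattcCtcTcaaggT
IMD4: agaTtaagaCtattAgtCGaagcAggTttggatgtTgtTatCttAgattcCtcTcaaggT
IMD1 copy: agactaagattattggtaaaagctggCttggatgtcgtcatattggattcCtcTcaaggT

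Read length is not given in the sources used here. Only exact matches were counted first. At an assumed 35 bases, 45.6% of stretches of IMD2, 23.9% of IMD3, 9.93% of IMD4 and 46.0% of the IMD1 copy occurred in more than 1 place of the genome, and none of URA2, URA8 or ADE12 did. At 50 bases, the shares were 33.7%, 16.6%, 7.01% and 32.1%. With 0 to 2 mismatches allowed, more aligned 35-base stretches were alike: 82.2% between IMD2 and the IMD1 copy and 35.9% between IMD2 and IMD3. The share was then 23.7% between IMD3 and IMD4 and 6.68% between IMD2 and IMD4. Counts were not whole numbers in 8 of 8 libraries for IMD2, 7 for IMD3 and 8 for IMD4, and were whole in all libraries for URA2, URA8 and ADE12. How reads with several matches were divided is not given in the sources used here, and the separate levels of the IMD genes are therefore uncertain. The IMD4 intron (chrXIII:163309-163716) holds the small nucleolar RNA gene SNR54 (chrXIII:163535-163620, −). SNR54 had at most 1.61 counts in any library, against at least 2429 for IMD4, and how reads over both were assigned is likewise not given.

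Total counts ran from 13787609 to 124620247 per library, of which ribosomal DNA features held 51.7 to 82.3%, leaving 4565468 to 22041136 outside them. RRP6 had 19 to 51 counts in the mutant libraries, against 377 and 2131 in WT. AIR1 had 7 and 2 counts in air1-Δ rrp6-Δ, against at least 210 in every library of the other strains. AIR2 had 34 and 21 counts in air2-Δ rrp6-Δ, against at least 102 elsewhere, and LEU2 had 0 in both WT libraries. Levels below are CPM, edgeR's counts scaled by library size and TMM factor, with mean ± SD over n = 2 libraries. Tests are edgeR's quasi-likelihood tests, adjusted by Benjamini-Hochberg over all 7543 features tested, with a threshold of 0.05. With 2 libraries on each side, the smallest p of an exact permutation test would be 0.33. In bulk RNA, fewer cells with a transcript and less of it per cell cannot be told apart. A count per gene does not separate short terminated RNAs from full messages. Nor is it known whether short RNAs that end upstream of a reading frame fall within the counted feature.

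All 6 genes were tested, in 6 comparisons each, and 1 of the 36 tests passed the threshold: ADE12 fell in air2-Δ rrp6-Δ relative to WT. Against WT, 0 of the 6 genes passed in rrp6-Δ, where 10.1% of all features tested did. In air1-Δ rrp6-Δ, 0 of 6 passed, against 8.39% of all features. In air2-Δ rrp6-Δ, 1 of 6 passed, against 10.3% of all features. All 6 are protein-coding, and of the 5647 coding genes tested a smaller share passed: 2.67% in rrp6-Δ, 1.72% in air1-Δ rrp6-Δ and 3.17% in air2-Δ rrp6-Δ. Between mutants, 0 of 6 passed in air1-Δ rrp6-Δ against rrp6-Δ (0.0663% of all features), in air2-Δ rrp6-Δ against rrp6-Δ (0.0133%) and in air1-Δ rrp6-Δ against air2-Δ rrp6-Δ (0.0795%). DESeq2's Wald test gave the same count in every comparison. At an unadjusted p under 0.05, the counts in that order were 0, 1, 1, 0, 2 and 2 of 6. Over all 7543 features, they were 1750, 1492, 1689, 429, 201 and 301. The comparisons with WT share the WT libraries, and those with rrp6-Δ share its libraries. The median log2 fold change of the 6 genes against WT was -0.12 in rrp6-Δ, -0.26 in air1-Δ rrp6-Δ and -0.04 in air2-Δ rrp6-Δ, beside 0.01, 0.02 and 0.03 over all features. Over coding genes alone, the medians were -0.10 in rrp6-Δ, -0.07 in air1-Δ rrp6-Δ and -0.07 in air2-Δ rrp6-Δ, so the median of the 6 genes lay below that of coding genes in air1-Δ rrp6-Δ and slightly above it in air2-Δ rrp6-Δ.

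**Figure D1:**
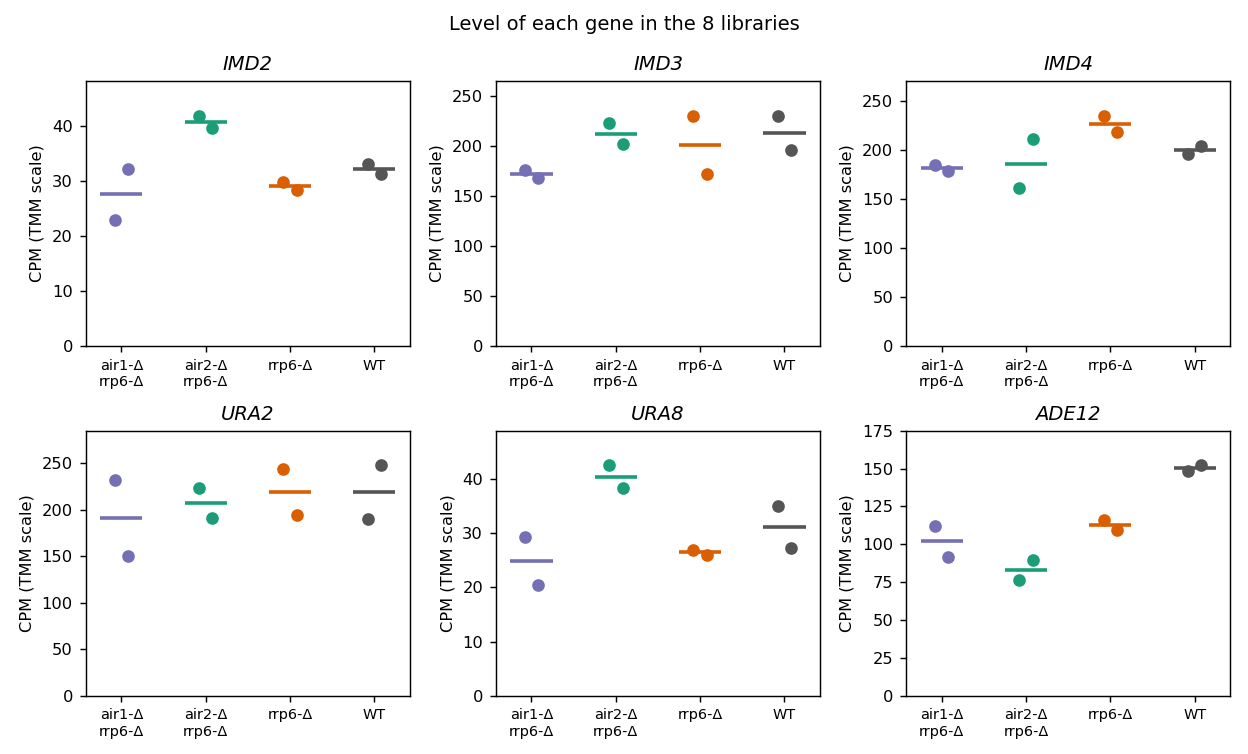
Level of each of the 6 genes in CPM (TMM scale, axis from 0) in every library of air1-Δ rrp6-Δ, air2-Δ rrp6-Δ, rrp6-Δ and WT; points are libraries and bars are means of 2. ADE12 lay at 76.6 to 116 CPM in the 6 mutant libraries, below both WT libraries at 148 and 152 CPM, and the other genes show smaller or overlapping differences.

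ADE12, at the branch from IMP to AMP (chrXIV:234413-235714, +), had 76.6 and 89.8 CPM in air2-Δ rrp6-Δ, against 148 and 152 CPM in WT. It had 112 and 91.7 CPM in air1-Δ rrp6-Δ and 116 and 109 CPM in rrp6-Δ. All 6 mutant libraries were below both WT libraries, and those of air2-Δ rrp6-Δ were the lowest. The share of all features whose libraries separate in such ways was not counted, here or for the genes below. Separation also occurred at small differences, as for IMD4 in rrp6-Δ and WT (log2 fold change 0.18, adjusted p = 0.671 in edgeR's quasi-likelihood test). In air2-Δ rrp6-Δ it averaged 83.2 ± 9.3 CPM, 55.4% of the 150.2 ± 2.8 CPM in WT (SD, n = 2 each), a log2 fold change of -0.85 (SE 0.205, 95% interval -1.31 to -0.40, adjusted p = 0.0272). It averaged 101.9 ± 14.4 CPM in air1-Δ rrp6-Δ, a log2 fold change against WT of -0.56 (adjusted p = 0.15). It averaged 112.7 ± 5.0 CPM in rrp6-Δ, a log2 fold change against WT of -0.415 (95% interval -0.87 to 0.04, adjusted p = 0.261). Neither passed the threshold.

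Between mutants, ADE12 had a log2 fold change of -0.44 in air2-Δ rrp6-Δ relative to rrp6-Δ (95% interval -0.89 to 0.02, adjusted p = 1). The ADE12 call was lost when library totals replaced TMM, where the log2 fold change was 0.06 and that of the median feature 0.945, and with a ribosomal DNA covariate (log2 fold change -0.74, adjusted p = 0.303). Ribosomal DNA held 57.1 and 55.1% of counts in air2-Δ rrp6-Δ, against 66.9 and 82.3% in WT. The call was also lost without air2-Δ rrp6-Δ replicate 1 (adjusted p = 0.207), without its replicate 2 (adjusted p = 0.107) and without WT replicate 2 (adjusted p = 0.0807), and was kept in 12 of 17 alternatives (adjusted p = 0.00336 to 0.932 over all 17). Over the 8 libraries, the centred log2 CPM profile of ADE12 was closest to those of QDR2, MGL2 and DAP2, with root mean square differences of 0.077, 0.102 and 0.125 among 4874 features with at least 5 CPM.

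IMD2, the inducible IMP dehydrogenase gene, had 23.0 and 32.2 CPM in air1-Δ rrp6-Δ, 41.98 and 39.69 CPM in air2-Δ rrp6-Δ, 29.9 and 28.3 CPM in rrp6-Δ, and 33.1 and 31.3 CPM in WT. Both air2-Δ rrp6-Δ libraries were above the other 6, both rrp6-Δ libraries were below WT, and those of air1-Δ rrp6-Δ overlapped with WT. IMD2 had a log2 fold change against WT of 0.34 in air2-Δ rrp6-Δ (95% interval -0.11 to 0.80, adjusted p = 0.364). The values against WT were -0.22 in air1-Δ rrp6-Δ (95% interval -0.67 to 0.24, adjusted p = 0.647) and -0.14 in rrp6-Δ (95% interval -0.60 to 0.31, adjusted p = 0.714). Between mutants, IMD2 in air2-Δ rrp6-Δ differed from rrp6-Δ by 0.49 on the log2 scale (unadjusted p = 0.0368, adjusted p = 1 in edgeR's quasi-likelihood test). In air1-Δ rrp6-Δ it differed from air2-Δ rrp6-Δ by -0.56 (unadjusted p = 0.0201, adjusted p = 0.991). Neither passed after adjustment. In the authors' deposited table, the log2 ratio of IMD2 in air2-Δ rrp6-Δ to rrp6-Δ was 0.48, with p = 0.191.

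IMD3 and IMD4 encode the other forms of the enzyme. IMD3 had 176.5 and 168 CPM in air1-Δ rrp6-Δ, 223 and 202 CPM in air2-Δ rrp6-Δ, 229.9 and 172 CPM in rrp6-Δ, and 230.6 and 196 CPM in WT. The air2-Δ rrp6-Δ, rrp6-Δ and WT libraries overlapped, and both air1-Δ rrp6-Δ libraries were below WT. IMD4 had 185 and 178 CPM in air1-Δ rrp6-Δ, 160.5 and 211 CPM in air2-Δ rrp6-Δ, 235 and 218 CPM in rrp6-Δ, and 195.5 and 204 CPM in WT. Its air1-Δ rrp6-Δ libraries were below WT, those of rrp6-Δ were above WT, and those of air2-Δ rrp6-Δ lay on either side of WT. Over the 6 comparisons, log2 fold changes ran from -0.31 to 0.08 for IMD3 and from -0.32 to 0.18 for IMD4, with standard errors of 0.22 to 0.23.

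Summing the counts of all IMD copies into 1 feature removes the question of how shared reads were divided among them. The sum averaged 382 ± 3.6 CPM in air1-Δ rrp6-Δ, 443 ± 20 CPM in air2-Δ rrp6-Δ, 458 ± 53 CPM in rrp6-Δ and 446 ± 20 CPM in WT (SD, n = 2 each). No comparison passed the threshold, with log2 fold changes of -0.26 to 0.04 and adjusted p-values of 0.671 to 1. IMD2 held 5.98 and 8.48% of the family's counts in air1-Δ rrp6-Δ, 9.80 and 8.69% in air2-Δ rrp6-Δ, 6.03 and 6.74% in rrp6-Δ, and 7.20 and 7.25% in WT. Exact binomial 95% intervals, which cover counting error only, ran from 5.42 to 6.58% for the lowest of these shares and from 9.34 to 10.3% for the highest. The highest shares were those of air2-Δ rrp6-Δ, and they were compared without a test. The intervals of air2-Δ rrp6-Δ replicate 2 (8.17 to 9.22%) and air1-Δ rrp6-Δ replicate 2 (7.91 to 9.07%) overlapped.

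**Figure D2:**
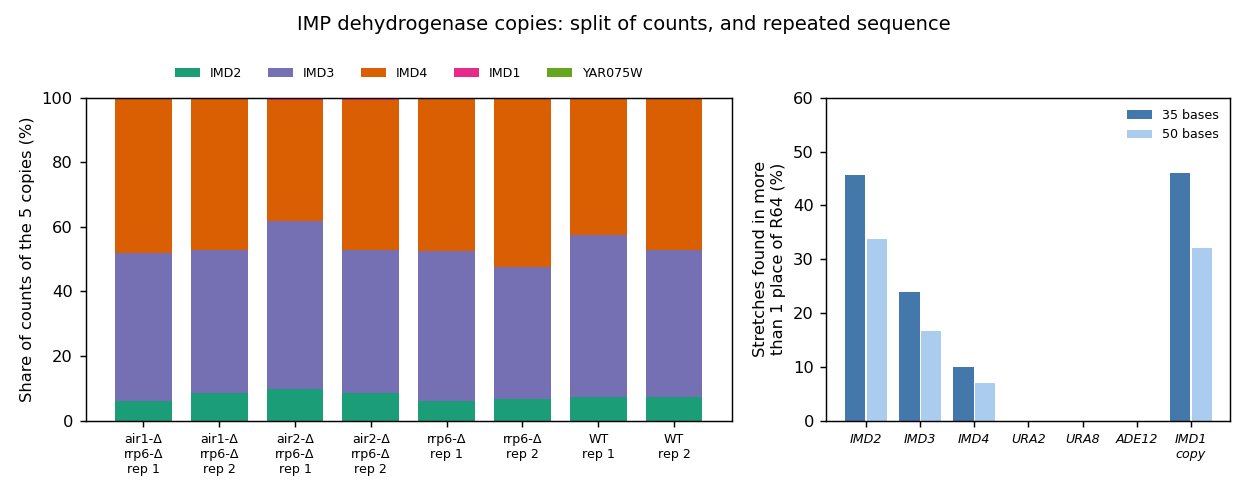
Left: share of the counts of the 5 annotated IMD features held by each feature in the 8 libraries, in percent. IMD1 (YAR073W) and YAR075W, frames of the same locus, together stay under 1% and are too thin to see. Right: share of all 35-base and 50-base stretches of each gene found by exact match in more than 1 place of R64, which is 45.6% for IMD2 at 35 bases and 0% for URA2, URA8 and ADE12.

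The IMD1 frames, YAR073W and YAR075W, lie at the same locus and are not among the 6 genes. Their sequence is nearly identical to that of IMD2, and their counts are uncertain for the same reason. YAR073W had 10.7 and 25.3 counts in air1-Δ rrp6-Δ, 94.4 and 73.4 in air2-Δ rrp6-Δ, 25.8 and 33.3 in rrp6-Δ, and 6.89 and 17.5 in WT. It rose in air2-Δ rrp6-Δ relative to WT, by 2.85 on the log2 scale (SE 0.57, adjusted p = 0.012), and did not pass in air1-Δ rrp6-Δ (adjusted p = 0.313) or rrp6-Δ (adjusted p = 0.15). YAR075W had 26.1 and 23.9 counts in air2-Δ rrp6-Δ, against 0.295 and 1.66 in WT. It also passed (adjusted p = 0.00983 in edgeR's quasi-likelihood test), so the calls are of the same locus and not of separate genes. The ratio of its rounded counts, pooled over both libraries and scaled by depth and TMM factor, was 29.2. Its exact counting interval, which covers counting error only and not the spread between duplicates, was 7.68 to 248. Both calls were lost with a ribosomal DNA covariate (adjusted p = 0.195 and 0.113 in the order YAR073W, YAR075W), where the log2 fold change of YAR073W was 2.48. The fitted value of YAR075W, which depends on the prior count, was then 5.31, against 4.755 without the covariate. They were lost too without air2-Δ rrp6-Δ replicate 2 (0.0693 and 0.0621) and without WT replicate 2 (0.0905 and 0.0668). Between air2-Δ rrp6-Δ and rrp6-Δ, the log2 fold changes were 1.35 for YAR073W (unadjusted p = 0.0232, adjusted p = 1 in edgeR's quasi-likelihood test) and 1.599 for YAR075W (unadjusted p = 0.0364, adjusted p = 1). In the authors' deposited table, the log2 ratios of air2-Δ rrp6-Δ to rrp6-Δ were 1.36 for IMD1 (p = 0.00158) and 1.585 for YAR075W (p = 0.00708). In every library these frames together held under 1% of the family's counts. The part that shared reads play in these values was not tested.

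URA2, at the head of the pyrimidine pathway (chrX:165723-172367, −), had 232 and 150.6 CPM in air1-Δ rrp6-Δ, 223.5 and 191 CPM in air2-Δ rrp6-Δ, 244 and 194.6 CPM in rrp6-Δ, and 190.0 and 247.8 CPM in WT. All strains overlapped WT, and the standard errors of 0.274 to 0.275 were the largest among the 6 genes. Its log2 fold changes against WT were -0.19 in air1-Δ rrp6-Δ (95% interval -0.81 to 0.42), -0.08 in air2-Δ rrp6-Δ (-0.70 to 0.53) and 0.00 in rrp6-Δ (-0.61 to 0.62), with adjusted p-values of 0.784, 0.902 and 0.997.

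URA8, the minor CTP synthase gene (chrX:620754-622490, +), had 29.4 and 20.5 CPM in air1-Δ rrp6-Δ, 42.6 and 38.4 CPM in air2-Δ rrp6-Δ, 27.0 and 26.1 CPM in rrp6-Δ, and 35.02 and 27.30 CPM in WT. Like IMD2, it was highest in both air2-Δ rrp6-Δ libraries, and how many other features share that order was not counted. In air2-Δ rrp6-Δ it had a log2 fold change of 0.38 against WT (95% interval -0.12 to 0.88, adjusted p = 0.361) and of 0.61 against rrp6-Δ (95% interval 0.11 to 1.11, unadjusted p = 0.022, adjusted p = 1 in edgeR's quasi-likelihood test). In air1-Δ rrp6-Δ it differed from air2-Δ rrp6-Δ by -0.70 (95% interval -1.21 to -0.20, unadjusted p = 0.0114, adjusted p = 0.991). In the authors' deposited table, the log2 ratio of URA8 in air2-Δ rrp6-Δ to rrp6-Δ was 0.60, with p = 0.102. Its paralog URA7 was 71.6% identical over the coding sequence and shared no aligned stretch of 35 bases with it.

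**Figure D3:**
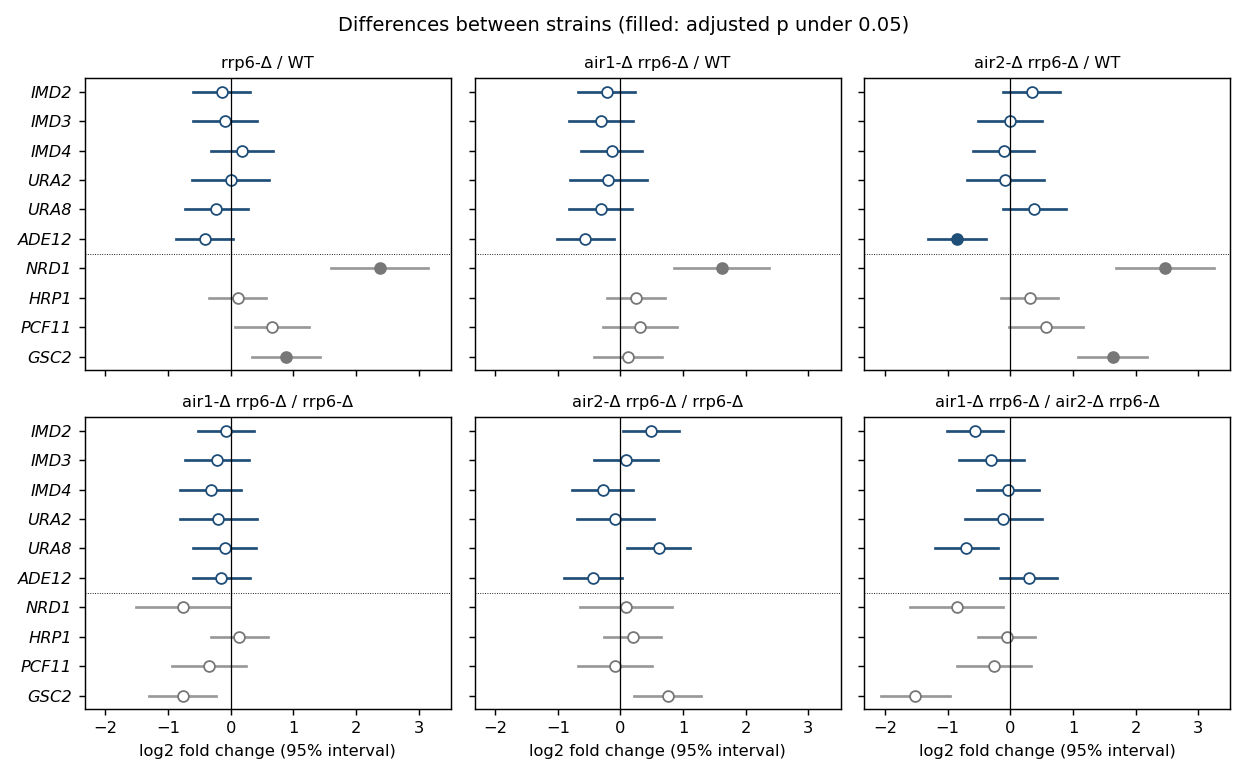
Log2 fold changes (points) with 95% intervals (lines) from edgeR's quasi-likelihood fit. The 6 genes are above the dotted line, and 4 genes known for early termination are below it. Each panel is 1 comparison, titled with the strain on top first. ADE12 in air2-Δ rrp6-Δ over WT, at -0.85, is the only filled point among the 6 genes, while NRD1 is filled in all 3 comparisons with WT.

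Profiles of the 6 genes varied in how alike they were. Between centred log2 CPM profiles over the 8 libraries, the root mean square difference ran from 0.221 between IMD3 and URA2 to 0.503 between URA8 and ADE12, and was 0.262 between IMD2 and URA8. In air2-Δ rrp6-Δ, the level per 1000 coding bases was 135 ± 9.2 CPM for IMD3, 118 ± 23 for IMD4, 63.9 ± 7.2 for ADE12, 31.2 ± 3.5 for URA2, 26.0 ± 1.0 for IMD2 and 23.3 ± 1.7 for URA8 (SD, n = 2 each). In WT it was 136 ± 15 CPM for IMD3, 127 ± 3.8 for IMD4, 115 ± 2.1 for ADE12, 32.9 ± 6.2 for URA2, 20.5 ± 0.79 for IMD2 and 17.9 ± 3.1 for URA8. The order was the same in both strains. In the other strains IMD4 came before IMD3, at 115 ± 3.0 and 110 ± 3.6 CPM per 1000 coding bases in air1-Δ rrp6-Δ and 144 ± 7.5 and 128 ± 26 in rrp6-Δ, and the order of the remaining genes was the same. In air2-Δ rrp6-Δ and WT, the libraries of IMD3 and IMD4 overlapped, those of IMD3 and IMD4 lay above ADE12, and all of these lay above URA2. IMD2 and URA8 overlapped in WT and not in air2-Δ rrp6-Δ.

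Further genes, known for early termination by the same complex, were set beside the 6. NRD1, which encodes the RNA-binding subunit that limits its own messenger RNA, had 59.6 and 38.2 CPM in air1-Δ rrp6-Δ, 104.4 and 72.0 CPM in air2-Δ rrp6-Δ, 97.6 and 68.5 CPM in rrp6-Δ, and 11.7 and 19.9 CPM in WT. It rose relative to WT by 1.61 on the log2 scale in air1-Δ rrp6-Δ (adjusted p = 0.0201), by 2.47 in air2-Δ rrp6-Δ (adjusted p = 0.00322) and by 2.38 in rrp6-Δ (95% interval 1.601 to 3.158, adjusted p = 0.00337). The air1-Δ rrp6-Δ call was lost without replicate 1 of that strain (log2 fold change 1.21, adjusted p = 0.156), without WT replicate 1 (1.215, adjusted p = 0.121) and with a ribosomal DNA covariate (1.94, adjusted p = 0.0502). The interval of NRD1 in rrp6-Δ lies above those of all 6 genes, the highest of which ends at 0.67 for IMD4. The difference between genes was not tested, and whether the short RNAs of each gene lie within its counted feature is not known.

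GSC2, also called FKS2, which encodes a glucan synthase subunit, rose by 1.63 in air2-Δ rrp6-Δ relative to WT (adjusted p = 0.0036), a call lost with a ribosomal DNA covariate (log2 fold change 1.45, adjusted p = 0.0804). GSC2 counts were not whole in 7 of 8 libraries, while NRD1, HRP1 and PCF11 had whole counts in all. The level of GSC2 is therefore uncertain, as are those of the IMD genes, and why its counts were not whole was not tested. In rrp6-Δ it rose by 0.88 (adjusted p = 0.0478), a call lost in 9 of 17 alternatives. Among them were rrp6-Δ replicate 1 left out (adjusted p = 0.22), WT replicate 2 left out (adjusted p = 0.24), and any 1 library of either double mutant left out (adjusted p = 0.0759 to 0.0844). In air1-Δ rrp6-Δ its log2 fold change was 0.12 (adjusted p = 0.864). HRP1 and PCF11, which encode cleavage and polyadenylation factors, did not pass against WT, with log2 fold changes of 0.11 to 0.65. Of the complex itself, 1 of 3 genes, NRD1, passed in each comparison with WT. NAB3 and SEN1 had log2 fold changes of -0.02 to 0.74, with adjusted p-values of 0.103 to 0.98. In rrp6-Δ, for example, NAB3 had 3900.71 and 2124.4 counts, which are not whole numbers, so its level is uncertain too.

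Other genes of nucleotide synthesis were taken in 3 lists and compared with WT. Against WT, 0.903% of coding genes fell in air1-Δ rrp6-Δ, 1.93% in air2-Δ rrp6-Δ and 1.68% in rrp6-Δ, and 0.815%, 1.24% and 0.992% rose in that order. Of 10 genes of de novo purine synthesis, which supply the IMP that the IMD enzymes and Ade12 use, 0 passed in air1-Δ rrp6-Δ and 0 in rrp6-Δ. At an unadjusted p under 0.05, edgeR gave 2 and 3, and DESeq2 called 1 and 2. In air2-Δ rrp6-Δ, 1 of 10 fell, ADE17, which catalyses the last steps to IMP (89.3 ± 24 CPM, against 188.8 ± 18 CPM in WT, log2 fold change -1.08, adjusted p = 0.0356). The median log2 fold change of the 10 was -0.435 in air1-Δ rrp6-Δ, -0.33 in air2-Δ rrp6-Δ and -0.36 in rrp6-Δ, beside medians of 0.02, 0.03 and 0.01 over all features and -0.07, -0.07 and -0.10 over coding genes. The ADE17 call was kept in 11 of 17 alternatives. It was lost without air2-Δ rrp6-Δ replicate 1 (adjusted p = 0.0547) or 2 (0.262), and without WT replicate 1 (0.0873) or 2 (0.0738). It was lost too with the ribosomal DNA covariate (log2 fold change -0.95) and with library totals (-0.21).

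Of 10 genes of later guanylate and adenylate steps and salvage, 0 passed in air1-Δ rrp6-Δ and 0 in rrp6-Δ (1 and 1 at an unadjusted p under 0.05 in edgeR, 0 and 0 by DESeq2). In air2-Δ rrp6-Δ, 1 of 10 fell, YNK1, the nucleoside diphosphate kinase (21.2 ± 1.5 CPM, against 37.8 ± 8.7 CPM in WT, log2 fold change -0.84, adjusted p = 0.0417). With library totals the value was 0.14, where that of the median feature was 0.945. The YNK1 call was kept in 8 of 17 alternatives. It was lost with the ribosomal DNA covariate (log2 fold change -0.53, adjusted p = 0.519). The call was lost too with TMM from protein-coding genes (adjusted p = 0.0601) and with 2 strains fitted alone (0.062). It was lost without air2-Δ rrp6-Δ replicate 1 (adjusted p = 0.145) or 2 (0.241), WT replicate 2 (0.18), or air1-Δ rrp6-Δ replicate 1 (0.0533) or 2 (0.0711).

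Of the 15 pyrimidine genes reported here, 0 rose and 1 fell in air1-Δ rrp6-Δ, 0 rose and 2 fell in air2-Δ rrp6-Δ, and 0 rose and 1 fell in rrp6-Δ, all relative to WT. DESeq2 called 2 in each comparison, and at an unadjusted p under 0.05 edgeR gave 3 in each. The median log2 fold change of the 15 was 0.00 in air1-Δ rrp6-Δ, 0.00 in air2-Δ rrp6-Δ and -0.02 in rrp6-Δ. The highest value of the list was 0.92 in air1-Δ rrp6-Δ (adjusted p = 0.053), 0.80 in air2-Δ rrp6-Δ (adjusted p = 0.0778) and 0.38 in rrp6-Δ (adjusted p = 0.446). URA4, dihydroorotase, which acts after Ura2, fell in all 3. It had 56.0 and 56.5 CPM in air1-Δ rrp6-Δ, 40.9 and 45.8 CPM in air2-Δ rrp6-Δ and 60.2 and 55.1 CPM in rrp6-Δ, against 93.62 and 94.99 CPM in WT. Its log2 fold changes were -0.745, -1.12 and -0.71 in that order (adjusted p = 0.0326, 0.00472 and 0.0335). URA1, dihydroorotate dehydrogenase, the next step, fell in air2-Δ rrp6-Δ (log2 fold change -0.85, adjusted p = 0.04). With library totals its value was 0.02, where that of the median feature was 0.945. Its values were -0.64 in air1-Δ rrp6-Δ (adjusted p = 0.132) and -0.75 in rrp6-Δ (adjusted p = 0.0663).

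Several of these calls depended on single libraries or on the processing. The calls of URA4 in rrp6-Δ, URA4 in air1-Δ rrp6-Δ and URA1 in air2-Δ rrp6-Δ were kept in 5, 8 and 7 of 17 alternatives. In that order, adjusted p-values were 0.12, 0.155 and 0.248 with the ribosomal DNA covariate. With 2 strains fitted alone they were 0.172, 0.0834 and 0.0555. The URA4 call in rrp6-Δ was lost without any 1 of the 8 libraries (adjusted p = 0.0524 to 0.0953), and that in air1-Δ rrp6-Δ without any 1 of the 6 libraries other than those of rrp6-Δ (adjusted p = 0.0679 to 0.184). The URA4 call in air2-Δ rrp6-Δ was kept without any 1 library and lost with library totals (log2 fold change -0.21, adjusted p = 0.741) and with the ribosomal DNA covariate (-1.17, adjusted p = 0.0775). The URA1 call was lost without any 1 of the 6 libraries other than those of rrp6-Δ (adjusted p = 0.0508 to 0.261). Between mutants, no gene of these 3 lists passed edgeR's quasi-likelihood test. At an unadjusted p under 0.05 it gave 1 pyrimidine gene, in air2-Δ rrp6-Δ against rrp6-Δ, where it gave 201 of all 7543 features. DESeq2 called 0 genes of these lists.

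**Figure D4:**
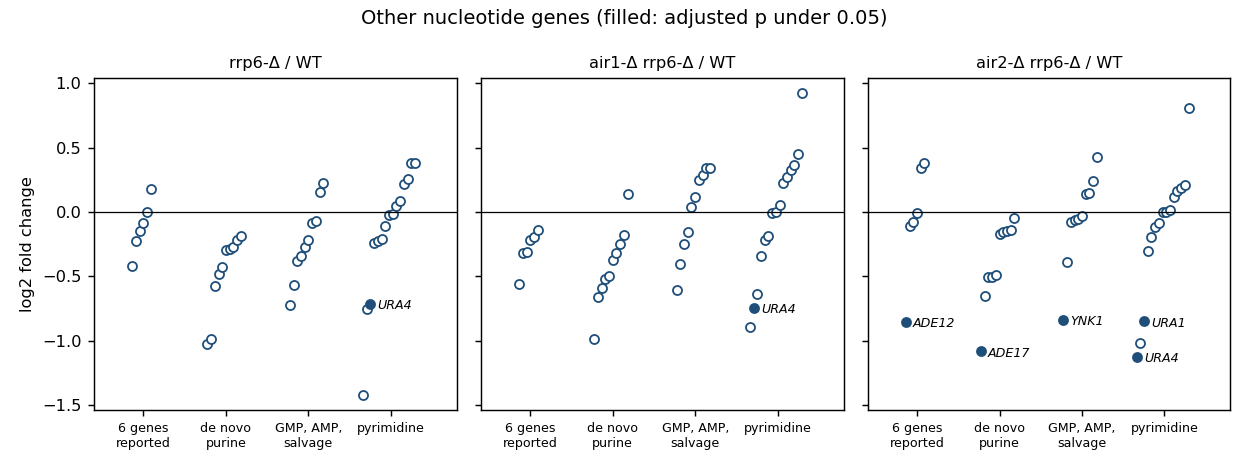
Log2 fold change of each gene (points, sorted within a list) in the 3 mutants over WT, for the 6 genes and for 10 de novo purine, 10 later guanylate, adenylate and salvage, and 15 pyrimidine genes; filled and named points have an adjusted p under 0.05. URA4 is filled in all 3 panels, and ADE12, ADE17, YNK1 and URA1 are filled only in the panel of air2-Δ rrp6-Δ, while no difference of these genes between mutants passed the test.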

How the data were processed

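Polyadenylated RNA was measured in 2 libraries of each of 4 yeast strains, grouped by their titles. The values deposited by the authors are expected counts per feature, not scaled for depth. The tools named, per the submitters' processing notes, are Bowtie 0.12.7, edgeR 2.2.5 and SAMtools, with no roles stated. Build, annotation, read length and counting rule: not given in the sources used here. Reads of near-identical genes could therefore have been split in any way. The authors' deposited table also gives log2 ratios with p-values. Its columns of either double mutant against WT were not used, since RRP6, AIR1 and LEU2 there run opposite to the stated direction.

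Counts were rounded to whole numbers before testing, features passing filterByExpr at its minimum count of 10 were used, and libraries were scaled by TMM. edgeR 4.0.16 in R 4.3.3 fitted 1 mean per strain, with robust quasi-likelihood, to all 8 libraries, because 2 strains alone leave few residual degrees of freedom. Benjamini-Hochberg adjustment ran over 7543 features with a threshold of 0.05. The code was tested on simulated data. Outside ribosomal DNA, duplicates had a chi-square of 33.8 to 91.6 per degree of freedom, above counting error. Same-numbered libraries deviated together across features, at correlations of 0.13 to 0.40 in all 6 pairs of strains. No label says that a number marks a batch, so the fit without a replicate block is the one reported. Alternatives were other scalings, DESeq2 1.42.0, no filter, pairs of strains alone, a replicate block, the ribosomal DNA share as a covariate, the IMD copies summed, and each library left out.

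Genes named were the 6 genes, the IMD1 frames, the deleted genes and LEU2, and up to 4 genes past the threshold per list. HRP1, PCF11, NAB3, SEN1, URA7 and SNR54 were named to complete a list or a locus. Likeness used features with at least 5 CPM, and is given for genes that passed a test. One gene of the pyrimidine list is not reported here. Of feature identifiers, 6048 matched RefSeq genes. Sequences come from RefSeq R64, aligned with Biopython 1.88. The 6 genes and all lists were chosen with earlier results of these data known.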

Additional observations from a re-analysis of the deposited data

How the results depend on the processing

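Over 17 alternatives, the 6 genes gave 594 values, of which 589 stayed on their side of the threshold, 4 lost the call and 1 reversed. Among uncalled values, 47 had another sign, 16 of them with library totals. The number of the 6 genes past the threshold in air2-Δ rrp6-Δ against WT was 1, but 0 with library totals, 0 when the ribosomal DNA share was a covariate, and 0 to 1 when single libraries were left out. In that comparison, library totals reversed ADE12 to 0.057, URA1 to 0.016 and YNK1 to 0.14 on the log2 scale. The cause was not tested. Library totals moved the median of all features against WT to 0.77 in air1-Δ rrp6-Δ, 0.945 in air2-Δ rrp6-Δ and 0.64 in rrp6-Δ. The medians of the 6 genes were then 0.45, 0.87 and 0.485, each below the median of all features, as in the reported fit. Coding genes alone then had medians of 0.66, 0.84 and 0.51, and in air2-Δ rrp6-Δ the 6 genes lay slightly above them, also as in the reported fit.

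With a replicate block, ADE12 in air2-Δ rrp6-Δ against WT had a log2 fold change of -0.85 (adjusted p = 0.0147), and no call among the 6 genes changed.

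Counts of all features past the threshold moved by over 1.5 times in places. Against WT, air1-Δ rrp6-Δ gave 633, but 158 with the ribosomal DNA covariate, 348 fitted as 2 strains alone, 1123 with library totals, and 174 to 288 without either of its libraries or WT replicate 2. For air2-Δ rrp6-Δ, the count was 776, but 102 with the covariate, 1417 with library totals, and 326 to 490 without either of its libraries or WT replicate 2. For rrp6-Δ, it was 761, but 344 with the covariate, 346 as 2 strains alone, and 503 without its replicate 1. Between mutants, air1-Δ rrp6-Δ against rrp6-Δ gave 5, but 12 by DESeq2 and 22 without rrp6-Δ replicate 2. For air2-Δ rrp6-Δ against rrp6-Δ, the count was 1, but 21 by DESeq2, 2 with library totals, and 0 without either library of air2-Δ rrp6-Δ. For air1-Δ rrp6-Δ against air2-Δ rrp6-Δ, it was 6, but 21 by DESeq2, 12 as 2 strains alone, 11 with library totals and 15 with the replicate block. At a log2 difference of -0.70 (SE 0.225), URA8 in air1-Δ rrp6-Δ against air2-Δ rrp6-Δ did not pass after adjustment. Its unadjusted p was 0.0114 in edgeR's quasi-likelihood test. At -0.71, URA4 in rrp6-Δ against WT did pass (adjusted p = 0.0335 in edgeR's quasi-likelihood test). Its SE of 0.179 and unadjusted p of 0.00281 in that test were smaller than those of URA8, so the evidence before adjustment differed too. Of 7543 features, 301 had an unadjusted p under 0.05 in the former comparison and 1750 in the latter.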
